A study of Danio rerio with 32 samples.

Results

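RNA was compared between dissected eyes and brains of wild-type zebrafish larvae at 120 hours post fertilization (hpf), in the 8 control libraries of a series of 32 that were kept under a light-dark cycle. These were 4 eye and 4 brain libraries from embryos held from 0.75 to 120 hpf in 0.1% DMSO, the solvent of the study's exposure, with daily light of 14 h and darkness of 10 h (LD) and without the perfluoroalkyl compound. The labels name that compound PFNA and the series' design text names PFHxS, and no library used here received either. Another 8 control libraries, 4 of each tissue in the same solvent but under 24 h of dark (DD), gave another comparison of the 2 tissues that shares no library with the first. The labels give neither the strain, the number of animals in a library, nor the time of day of collection, and no label ties a replicate to its own clutch. The spread behind each p-value is thus that of these libraries and may be technical. Libraries held 9903601 to 15724003 fragments assigned to genes. Values are FPKM, fragments per kilobase of gene length scaled for library size. Each difference is eye minus brain in the mean of log2(FPKM + 1), so it is positive where the eye was higher, and it understates the change of genes near 1 FPKM. A gene was called when its adjusted p from limma (two-sided, Benjamini-Hochberg over 16917 genes that reached 1 FPKM in at least 4 of the 8 libraries) was under 0.05.

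The eye of a zebrafish at this age holds a lens packed with crystallins, a layered neural retina rich in cones, and a pigment epithelium that makes melanin and recycles the light-sensitive retinal. Opsins in rods and cones act through transducin and a phosphodiesterase to close channels gated by cyclic GMP, and the signal passes to bipolar cells across ribbon synapses. The brain uses many of the same neuronal genes, but its territories are marked by regional transcription factors, and it also holds oligodendrocytes, neurosecretory cells and the Hox-expressing hindbrain. In bulk tissue, a lower value can come from fewer cells of a type or from less RNA per cell, and these cannot be told apart.

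The tissue labels were checked with 4 markers, namely rho, the rod opsin, cryaa, a lens alpha-crystallin, mbpa, a myelin basic protein, and elavl3, an RNA-binding protein of neurons. The rho gene (chromosome 8, 54076195 to 54077740, reverse strand) measured 2117, 3593, 2719 and 2579 FPKM in eye replicates 1 to 4 and 5.19, 2.195, 4.28 and 2.00 FPKM in brain replicates 1 to 4. All 4 eyes were far above all 4 brains, and the log2 difference was 9.33 ± 0.25 (SE; limma adjusted p = 1.83e-09). The cryaa gene measured 104, 99.7, 85.0 and 105 FPKM in the eyes, and no fragment was counted for it in any brain. Set against a floor of 3 fragments per brain library, its mean FPKM was at least 572-fold higher in the eye. The mbpa gene (chromosome 19, 21814047 to 21832630, reverse strand) went the other way, at 2.24, 2.97, 1.71 and 0.927 FPKM in the eyes and 52.0, 82.0, 48.7 and 58.3 FPKM in the brains, with a difference of -4.39 ± 0.23 (limma adjusted p = 2.04e-07). The elavl3 gene was higher in brain but strongly present in both tissues, at 85.6, 90.3, 99.6 and 88.2 FPKM in the eyes and 251, 209, 243 and 257 FPKM in the brains (-1.39 ± 0.09, limma adjusted p = 1.22e-06). For each of the 4 genes the groups did not overlap, in the direction of the labels, where 49.4% of all genes tested did not overlap in either direction.

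The libraries themselves separated by tissue. Over the genes tested, the correlation of log2(FPKM + 1) was 0.957 to 0.965 between eyes, 0.935 to 0.971 between brains, and 0.64 to 0.67 between an eye and a brain. The brain libraries were less alike than the eyes in transcripts of tissue that surrounds the brain. The summed level of a list of cornea and epidermis genes was 1086, 354, 1138 and 83.5 FPKM in brain replicates 1 to 4 against 1499, 949, 1098 and 1125 FPKM in the eyes. A list of cartilage, bone and connective tissue genes summed to 866, 445, 1308 and 187 FPKM in the brains. Brain replicates 1 and 3 were high in both lists and replicate 4 was lowest in both. Their part in the differences below was not tested, and the counts of lists led by such genes are also given without brain replicates 1 and 3, and without replicates 2 and 4.

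Eye and brain differed in about as many genes in each direction, but on the log2(FPKM + 1) scale the eye had by far the larger extremes. Of 16917 genes tested, 8996 (53.2%) were called, 4574 higher in the eye (27.0%) and 4422 higher in the brain (26.1%). Groups did not overlap in either direction for 8361 genes, or 49.4%. A limma test against a 2-fold change (treat, adjusted p under 0.05) left 1318 genes more than 2-fold higher in the eye (7.79%) and 1206 more than 2-fold higher in the brain (7.13%). Among called genes, 329 had a fitted difference of over 16-fold in favour of the eye and 22 in favour of the brain. Past 64-fold there were 85 for the eye and 0 for the brain, and 67 of those 85 stood on a gene list used here. This scale limits the fitted fold of genes at low levels. The hoxd3a gene, at 7.53 FPKM in the brain and 0.0821 FPKM in the eye, had a difference of -2.95 on it. Since the filter needs 1 FPKM in only 4 libraries, a gene absent from a tissue could pass it only by being expressed in the other. For such genes the filter set the direction, so list counts that rest on them are no support for it. Genes of at least 10 FPKM in every eye and under 1 FPKM in every brain numbered 306, of which 35 were crystallins. The reverse pattern held for 20 genes.

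**Figure D1:**
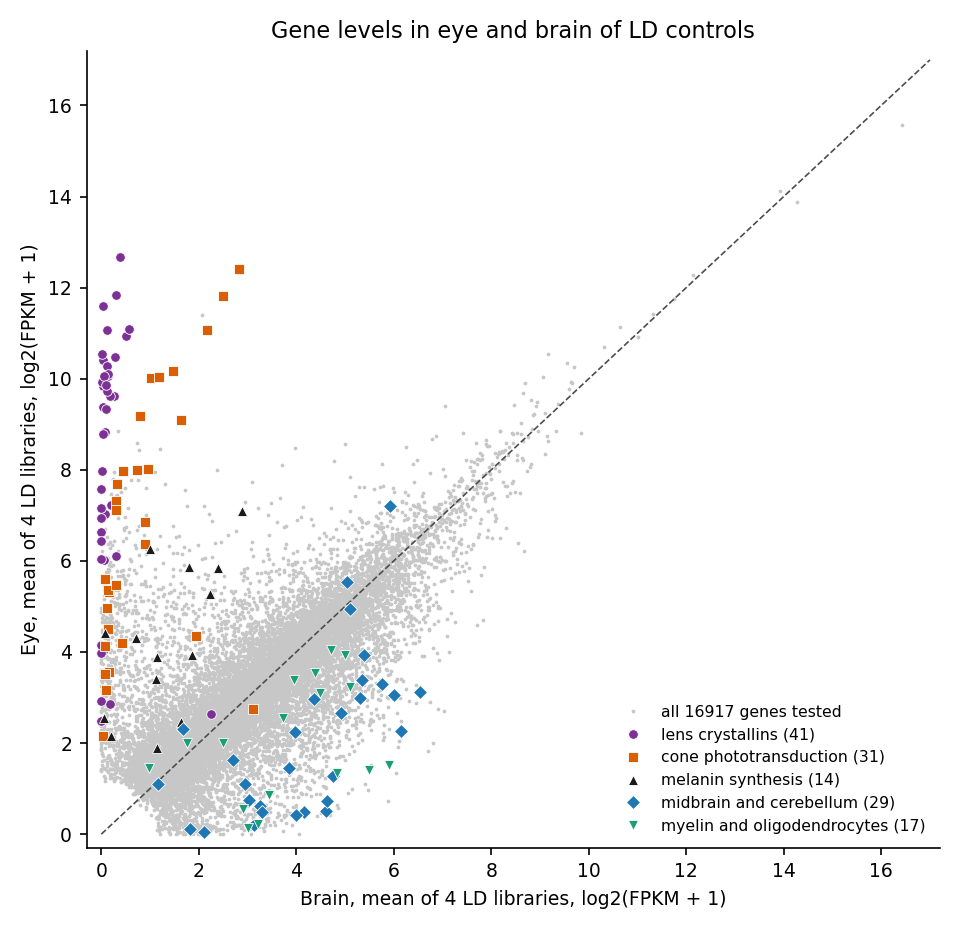
Mean level of each tested gene in 4 brain libraries (horizontal axis) and 4 eye libraries (vertical axis), both as log2(FPKM + 1), with 5 gene lists (lens crystallins, cone genes, melanin synthesis, midbrain and cerebellum, myelin) in colour over all 16917 tested genes in grey and a dashed line of equal levels. Crystallins and cone genes run up the left edge, high in the eye and near 0 in the brain, while most myelin and midbrain and cerebellum genes lie below the line at low to middle levels.

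The dark-kept controls gave nearly the same tissue difference for genes past 2-fold under LD, and a less complete match for all called genes. There 8131 of 17350 genes tested were called (46.9%). Of the genes more than 2-fold higher in the eye under LD that could be tested under DD, 1290 of 1302 were called higher in the eye and 1 was called higher in the brain. Of those more than 2-fold higher in the brain, 1182 of 1191 were called higher in the brain and 0 higher in the eye. Among all called genes that could be tested under DD, 3297 of 4462 kept the call for the eye, with 10 called the other way. For the brain 3365 of 4320 kept it, with 1 called the other way. A test of the change in the tissue difference between LD and DD called 88 of 18552 genes (0.474%). Among list members these included cngb1a, the beta subunit of the rod channel, whose difference was 6.61 under LD and 5.51 under DD (123 ± 5.41 FPKM in LD eyes and 62.0 ± 6.74 FPKM in DD eyes, mean ± SD, n = 4; limma adjusted p = 0.00355). The same test called rdh8a, a retinol dehydrogenase of photoreceptors, at 3.32 under LD and 4.37 under DD (limma adjusted p = 0.00356). Both genes were named after their values were seen, and each was higher in the eye under either photoperiod. Over 23 other settings or left-out libraries the call was kept in 21 for cngb1a and in 22 for rdh8a, while the count of genes called ran from 18 to 163.

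The lens gave the largest differences of all. Of 56 crystallin genes matched, 41 passed the filter on low values, and 40 of these were called higher in the eye and 0 in the brain. Their median difference was 9.25, beside 0.01 over all genes tested. The 40 called had brain means of at most 0.526 FPKM, so they passed only through the eyes and the filter set their direction. Crystallins summed to 34835 to 39328 FPKM in the eyes, which was 4.14 to 4.76% of an eye library's fragments, and to 6.60 to 11.2 FPKM in the brains. In the brain libraries the tested crystallins together stood at 0.0175 to 0.0275% of their summed level in the eye. The most abundant was crygm2d13 (chromosome 9, 22091161 to 22092089, reverse strand), a gamma-M crystallin of the fish lens, at 6586, 6167, 6441 and 6846 FPKM in the eyes and 0, 0, 1.85 and 0 FPKM in the brains. It lies in a run of 21 crygm2d genes on chromosome 9 between positions 22091161 and 22339582, and crygm2d members made up 53.2 to 59.9% of the crystallin FPKM in the eyes. These genes resemble each other closely and some overlap, so the split of reads among them is uncertain.

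Beta-crystallins followed a like pattern at lower levels. The crybb1 gene measured 2598, 2304, 3765 and 4151 FPKM in the eyes and 0.119, 0, 0 and 0 FPKM in the brains, with eyes 1 and 2 below eyes 3 and 4. The crygn2 gene, of the gamma-N class, measured 2260.0, 2312, 2178 and 2043 FPKM in the eyes and 0.305, 0.210, 1.14 and 0.451 FPKM in the brains. The tested crystallin crygm4 was not called, at 5.62 ± 2.41 FPKM in the eye and 3.83 ± 0.840 FPKM in the brain (mean ± SD, n = 4; limma adjusted p = 0.298). The proteins that shape and couple lens fibre cells went with the crystallins, 16 of 17 being called higher in the eye and 0 in the brain. They were led by mipb, a water channel of the fibre membrane, at 402, 375, 525 and 564 FPKM in the eyes and 0.252, 0.433, 0.244 and 0.165 FPKM in the brains, and by the beaded filament genes BFSP1 (7.57 ± 0.12) and bfsp2 (7.53 ± 0.10). Under DD all 40 called crystallins and all 16 called lens fibre genes were again called higher in the eye. For most of the 16 the brain mean under LD was also under 1 FPKM, so the filter set their direction too.

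Photoreceptor genes came next, and the summed cone opsins stood above rho in every eye. In the rod list 19 of 20 tested members were called higher in the eye and 0 in the brain (median difference 5.41), and in the cone list 30 of 31 and 0 (median 5.53). Most called members of both lists averaged under 1 FPKM in the brain, so they passed the filter through the eyes. For these the filter set the direction, and the counts are no support for it. The cone genes made up 3.06 to 3.65% of an eye library's fragments and stood in the brains at 0.189 to 0.281% of their level in the eye. The ultraviolet opsin opn1sw1 (chromosome 4, 13577665 to 13580348, reverse strand) measured 5447, 6365, 4837 and 5111 FPKM in the eyes and 10.5, 5.09, 5.32 and 4.53 FPKM in the brains. The green opsin opn1mw1 measured 3289, 4448, 3301 and 3455 FPKM in the eyes and 7.26, 3.53, 4.07 and 4.21 FPKM in the brains. On the per-length FPKM scale opn1sw1 made up 51.9 to 54.0% of the summed cone opsin level, opn1mw1 31.99 to 36.5%, the red opsin opn1lw2 7.68 to 12.8% and the blue opsin opn1sw2 1.44 to 1.66%. These shares kept the same order in all 4 eyes, and their ranges did not overlap. Summed cone opsins were 4.86, 3.40, 3.43 and 3.67 times rho in eye replicates 1 to 4, on the same scale.

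Further down the cascade the cone form was not always the higher. The gnat2 gene, the transducin alpha subunit of cones, stood at 3.92, 4.77, 4.74 and 4.89 times gnat1, that of rods, in eye replicates 1 to 4 on the FPKM scale. The cone phosphodiesterase pde6c stood at 10.8, 12.9, 14.1 and 11.9 times the rod subunit pde6b. In contrast, sagb, an arrestin that quenches rhodopsin, measured 349.7 ± 28.7 FPKM in the eye. The cone arrestins arr3a and arr3b, each taken alone and not summed, measured 254 ± 28.5 and 137 ± 7.27 FPKM. The rod channel subunit cngb1a measured 123 ± 5.41 FPKM against 40.1 ± 0.567 FPKM for the cone subunit cngb3.2 (mean ± SD, n = 4). The alpha subunits of these channels did not follow cngb1a. Cone cnga3a and cnga3b had eye means of 81.6 and 38.8 FPKM, and rod cnga1a and cnga1b 10.7 and 21.9 FPKM. Against the brain, gnat2 differed by 8.70 ± 0.13, and sagb by 7.24 ± 0.13. In the rod list gnb1a, a G protein beta subunit that is also widespread outside the retina, was the member that was not called (66.7 ± 11.9 FPKM in the eye and 60.3 ± 8.27 FPKM in the brain), and in the cone list it was rgs9b (5.77 ± 1.05 and 7.64 ± 1.03 FPKM; mean ± SD, n = 4). The genes crygm4, gnb1a and rgs9b and the rod and cone forms gnat1, gnat2, pde6b, pde6c, arr3a, arr3b and cngb3.2 were named after their values were seen. So were the channel genes cnga1a, cnga1b, cnga3a and cnga3b. The gene of the rod transducin gamma subunit, gngt1, was listed at 0 in all 8 libraries.

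**Figure D2:**
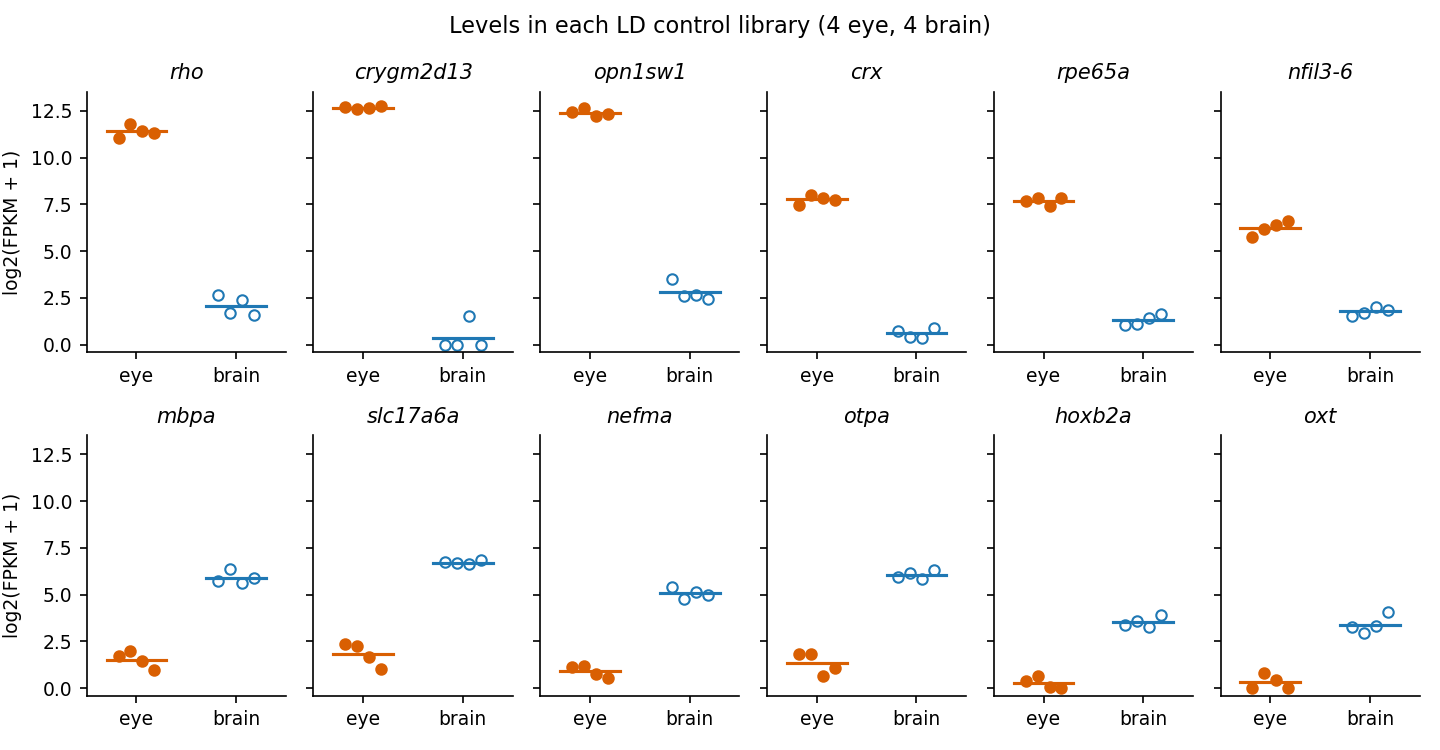
Level of 12 genes in each of the 8 LD libraries as log2(FPKM + 1), with 4 eye replicates as filled orange circles, 4 brain replicates as open blue circles, and each group's mean as a short bar. In each of the panels for rho, crygm2d13, opn1sw1, crx, rpe65a, nfil3-6, mbpa, slc17a6a, nefma, otpa, hoxb2a and oxt the 2 groups do not overlap. Over all genes tested 49.4% did not overlap in either direction. The 12 genes were picked from the named genes, so their separation is no support for them.

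Genes of the pigment epithelium and the visual cycle were higher in the eye with few exceptions. Of 20 tested, 15 were called higher in the eye and 2 in the brain. The shares over all genes tested were 27.0% and 26.1%. Many of the 15, such as rlbp1a and rrh, averaged under 1 FPKM in the brain, and both of the 2 did so in the eye. The filter set the direction of these, so their part of the counts is no support for it. The rpe65a gene, the isomerase that regenerates 11-cis retinal in the pigment epithelium, measured 206, 228, 167 and 229 FPKM in the eyes and 1.07, 1.13, 1.71 and 2.13 FPKM in the brains (6.39 ± 0.16). The rbp3 gene, the retinoid carrier between photoreceptors and pigment epithelium, differed by 6.68 ± 0.16. The members called higher in the brain were rpe65c, a paralog of the isomerase, at 0.0915 ± 0.0490 FPKM in the eye and 1.99 ± 0.958 FPKM in the brain, and lratb.1, a lecithin retinol acyltransferase, at 0.379 ± 0.260 and 1.299 ± 0.230 FPKM (mean ± SD, n = 4). Melanin synthesis genes were called higher in the eye in 14 of 14 cases, though for members under 1 FPKM in the brain, such as pmelb, the filter set the direction. Among them were tyrp1b, a tyrosinase-related protein, at 136 ± 20.8 against 7.46 ± 5.38 FPKM and trpm1b, a channel also used by ON bipolar cells, at 75.9 ± 2.18 against 1.02 ± 0.284 FPKM. The dct gene, dopachrome tautomerase, measured 2.44, 1.79, 4.37 and 1.79 FPKM in the brains, and its tissue difference was larger under DD (5.41) than under LD (4.06; limma adjusted p of the change = 0.0254), a call kept in 18 of 23 other settings.

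Transcription factors of retinal cell fate were largely, but not wholly, on the side of the eye. Of 44 tested, 37 were called higher in the eye and 2 in the brain, with a median of 2.299. The shares over all genes tested were 27.0% and 26.1%. Some of the 37, such as crx, otx5 and six7, averaged under 1 FPKM in the brain. The filter set the direction of these, so their part of the count is no support for it. The crx gene (chromosome 5, 36932718 to 36936443, forward strand), a homeobox factor of photoreceptors, measured 178, 251, 230.0 and 214 FPKM in the eyes and 0.654, 0.346, 0.281 and 0.854 FPKM in the brains. It was followed by its relative otx5 (6.21 ± 0.12), by vsx1 of bipolar cells (5.85 ± 0.21) and by six7, a factor of zebrafish cones (5.81 ± 0.13). The members called higher in the brain were neurod6b, a factor of differentiating neurons, at 2.84, 1.88, 2.55 and 1.90 FPKM in the eyes and 26.5, 26.5, 32.6 and 30.2 FPKM in the brains, and lhx2b, a LIM homeobox factor of eye and forebrain, at 17.03 ± 1.69 and 25.6 ± 2.00 FPKM. Markers of bipolar and horizontal cells were called higher in the eye in 14 of 17 cases, with lhx1a, which marks horizontal cells in the retina but also many brain neurons, higher in the brain (-3.85 ± 0.15). Here too the filter set the direction of members under 1 FPKM in the brain, such as vsx1.

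Ribbon synapse genes followed the retinal factors. They were called higher in the eye in 17 of 20 cases and higher in the brain in 1, beside 27.0% and 26.1% of all genes tested. Some of the 17, such as cplx4a and cacna1fa, averaged under 1 FPKM in the brain. The filter set the direction of these, so their part of the count is no support for it. The cplx4a gene, a complexin of ribbon terminals, measured 199, 172, 174 and 184 FPKM in the eyes and 0.0952, 0.491, 0.355 and 0.352 FPKM in the brains, and cacna1fa, the calcium channel that drives release there, differed by 6.25 ± 0.18. The member called higher in the brain was bsnb, a bassoon scaffold that conventional synapses also use (28.4 ± 3.23 FPKM in the eye and 56.8 ± 7.65 FPKM in the brain, mean ± SD, n = 4).

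Brain genes that mark its territories formed the opposite side, with smaller differences. The telencephalon list had 17 of 19 tested members called higher in the brain and 1 in the eye, the hypothalamus and diencephalon list 18 of 22 and 3, and the midbrain and cerebellum list 24 of 29 and 2. Their medians were -1.86, -2.3002 and -2.27. Over all genes tested the shares called were 26.1% for the brain and 27.0% for the eye. Many of the members called higher in the brain, such as otpb, en1b and dlx1a, averaged under 1 FPKM in the eye. These passed the filter through the brains, which set their direction, so their part of the counts is no support for it. The otpa gene (chromosome 21, 7582036 to 7586992, forward strand), a homeobox factor of neuroendocrine cells in the hypothalamus, measured 2.58, 2.55, 0.546 and 1.08 FPKM in the eyes and 61.1, 69.2, 55.2 and 78.5 FPKM in the brains, and its paralog otpb 0.680, 0.552, 0.315 and 0.411 and 23.7, 35.8, 19.6 and 35.6 FPKM. The en1b gene, an engrailed factor of the midbrain-hindbrain boundary, measured 0.432 ± 0.106 FPKM in the eye and 23.3 ± 0.843 FPKM in the brain, and gata3, a factor of inhibitory neurons, 3.88 ± 0.981 and 70.2 ± 6.31 FPKM (mean ± SD, n = 4). In the forebrain zic1 differed by -3.42 ± 0.15 and dlx1a, a factor of GABA neurons, by -3.28 ± 0.27.

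Some members of these lists went the other way. In the diencephalon list fezf2, a zinc finger factor of the forebrain, was higher in the eye, at 38.4, 40.0, 45.5 and 37.7 FPKM in the eyes and 3.94, 2.97, 4.29 and 4.76 FPKM in the brains, as was rx3, a factor of the eye field and hypothalamus (3.505 ± 0.17). In the telencephalon list the member called higher in the eye was nr2f1b (1.05 ± 0.11). The telencephalic factor foxg1a was not called, at 11.9 ± 0.858 FPKM in the eye and 10.9 ± 4.27 FPKM in the brain (mean ± SD, n = 4; limma adjusted p = 0.504). Its paralog foxg1b (chromosome 11, 43114108 to 43116249, forward strand), which stood on no list and was named after its values were seen, measured 301, 367, 329.8 and 400.0 FPKM in the eyes and 0.168, 0.960, 0.834 and 1.07 FPKM in the brains (7.66 ± 0.18, limma adjusted p = 7.24e-10). Brain territory genes were not at 0 in the eye. Summed over the members called higher in the brain, the eyes held 26.5 to 30.0% of the brain level for the telencephalon list, 9.02 to 11.8% for the hypothalamus and diencephalon list, and 12.3 to 13.9% for the midbrain and cerebellum list. Sums rest most on the members of high level. The median member stood at 14.9 to 15.8%, 5.19 to 10.4% and 8.55 to 10.8% in the same order.

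Hox genes, which pattern the hindbrain and the trunk, passed the filter only up to the middle of their series. Of 48 matched, 10 passed the filter and all 10 were called higher in the brain. Their mean levels in the eye were at most 0.266 FPKM, so they could pass only through the brains. The filter thus set their direction, and the count of 10 is no support for it. These 10 were among the 17 genes of paralog groups 1 to 5, and 0 of the 31 genes of groups 6 to 13 passed. Group 2 summed to 13.2, 13.9, 12.7 and 16.9 FPKM in brain replicates 1 to 4, group 4 to 13.9, 19.8, 11.4 and 27.2 FPKM, group 6 to 0.581, 1.56, 2.04 and 4.43 FPKM and group 9 to 0.0232, 0.0962, 0 and 0.261 FPKM. Group 6 was below group 5 in every brain library, and in groups 2 to 6 replicate 4 was the highest of the 4. In the eyes no group summed to more than 1.34 FPKM. The hoxb2a gene (chromosome 3, 23752150 to 23754831, forward strand) measured 0.284, 0.557, 0.0473 and 0 FPKM in the eyes and 9.57, 11.2, 8.73 and 13.9 FPKM in the brains. A list of hindbrain and spinal cord genes, which shares hoxa2b with the Hox list, was called higher in the brain in 11 of 16 cases, among them evx2 (-3.26 ± 0.15) and phox2a (-2.73 ± 0.31), factors of interneurons and of noradrenergic and motor neurons. Both evx2 and phox2a averaged under 1 FPKM in the eye, so the filter set their direction. Those called higher in the eye included slc6a9, a glycine transporter of retina and glia (1.96 ± 0.12), and isl1, which retinal ganglion and bipolar cells use too (2.23 ± 0.11).

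**Figure D3:**
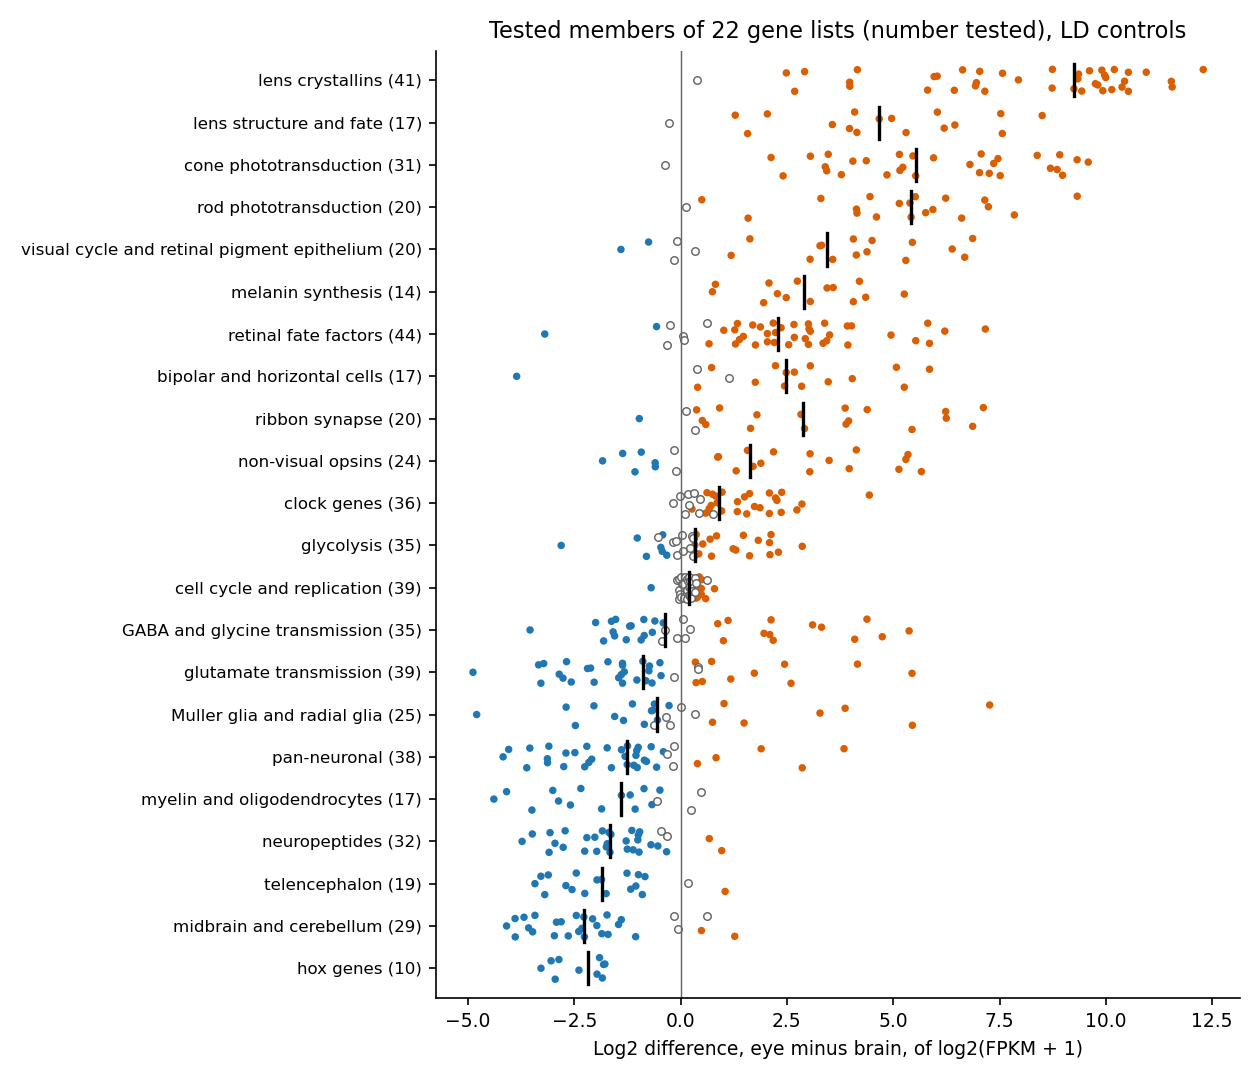
Log2 difference (eye minus brain, log2(FPKM + 1)) of every tested member of 22 gene lists, 1 point per gene, filled where limma called it and open where it did not, with the list median as a bar. Lens, photoreceptor and melanin lists lie to the right of 0, regional brain, Hox, peptide and myelin lists to the left, and the transmission, glia and glycolysis lists spread to both sides.

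Neuronal genes shared by both tissues were mostly higher in the brain. Of 38 pan-neuronal genes tested, 30 were called higher in the brain and 5 in the eye (median -1.25). Neurofilament genes had the lowest differences, with nefma (chromosome 21, 19013850 to 19018455, reverse strand) at 1.15, 1.27, 0.711 and 0.436 FPKM in the eyes and 41.1, 26.2, 34.7 and 29.9 FPKM in the brains and nefmb at 0.330 ± 0.242 and 20.8 ± 3.12 FPKM. The RNA-binding protein gene elavl4 differed by -3.13 ± 0.16, and inab, which encodes another neuronal intermediate filament, was not called (-0.17 ± 0.13), both named after their values were seen. The genes called higher in the eye included stxbp1b, a syntaxin-binding protein of vesicle fusion (24.2, 27.7, 29.0 and 14.6 FPKM in the eyes, 0.616, 0.843, 1.02 and 0.320 FPKM in the brains), and eno1b, an enolase (2.86 ± 0.13). Channels, pumps and transporters of nerve signalling were split 25 to 11 in favour of the brain among 42 tested. The 11 on the eye's side are near the 27.0% of all genes tested that were called higher in the eye. On the side of the brain atp1b1b, a sodium pump beta subunit, differed by -3.54 ± 0.14, and on that of the eye kcnb2, a delayed rectifier potassium channel, by 5.27 ± 0.14.

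Excitatory and inhibitory transmission was divided between the tissues by gene. The vesicular glutamate transporter slc17a6a (chromosome 25, 35250976 to 35271284, forward strand) had the lowest difference of any named protein-coding gene of at least 10 FPKM in the higher tissue, at 4.13, 3.79, 2.16 and 1.06 FPKM in the eyes and 104, 100.9, 97.8 and 112 FPKM in the brains (-4.88 ± 0.26, limma adjusted p = 1.86e-07). The transporter of photoreceptors and bipolar cells, slc17a7b, went the other way, at 132, 161, 150.01 and 145 FPKM in the eyes and 2.296, 1.84, 3.21 and 2.37 FPKM in the brains. Of 39 glutamate genes tested, 26 were called higher in the brain, such as the metabotropic receptor gene grm5a (-3.34 ± 0.15), and 10 in the eye, such as the kainate receptor genes grik1b (4.16 ± 0.11) and grik1a (2.60 ± 0.14). Over all genes tested the shares were 26.1% for the brain and 27.0% for the eye, so the 10 of 39 are near the latter. For GABA and glycine the counts were 16 for the brain and 13 for the eye among 35. The eye's side was led by gabra6a, a GABA-A receptor alpha subunit, at 42.8 ± 5.83 against 0.0477 ± 0.0114 FPKM, and by the rho subunits gabrr1 (4.74 ± 0.14) and gabrr3b (4.38 ± 0.14), which form the slow GABA receptors of bipolar cells. The brain's side was led by gad1a, a GABA-synthesizing enzyme, at 1.07 ± 0.287 FPKM in the eye and 23.0 ± 2.80 FPKM in the brain (mean ± SD, n = 4).

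Myelin genes were higher in the brain without a called exception, and glial genes were called in both directions. Of 17 myelin and oligodendrocyte genes tested, 14 were called higher in the brain and 0 in the eye, and 13 of 14 kept that call under DD. After mbpa came the myelin proteolipid gene plp1b (1.56 ± 0.498 FPKM in the eye and 27.6 ± 3.58 FPKM in the brain) and nkx2.2a, a factor of oligodendrocyte precursors (0.175 ± 0.179 and 8.39 ± 1.18 FPKM; mean ± SD, n = 4). Members that averaged under 1 FPKM in the eye, such as nkx2.2a, passed the filter through the brains, which set their direction. Among Muller glia and radial glia genes 7 of 25 were called higher in the eye and 13 in the brain. The 7 are near the share of all genes tested that were called higher in the eye (27.0%). The share called higher in the brain was 26.1%. The glial glutamate transporter slc1a3b, which clears glutamate from synapses, measured 5.35, 4.30, 1.55 and 2.07 FPKM in the eyes and 128, 91.8, 115 and 111 FPKM in the brains. Another, slc1a2a, had the opposite pattern, at 173, 167, 168 and 197 FPKM in the eyes and 0.159, 0.164, 0.119 and 0.141 FPKM in the brains. The retinaldehyde-binding gene rlbp1a, which is also on the list of pigment epithelium genes, and the water channel gene aqp4 were higher in the eye (5.45 ± 0.10 and 3.87 ± 0.23).

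Most neuropeptide and hormone genes tested were called higher in the brain. Of 32 neuropeptide and granin genes tested, 28 were called higher in the brain and 2 in the eye. The shares over all genes tested were 26.1% for the brain and 27.0% for the eye. The oxt gene, the oxytocin precursor of the hypothalamus, measured 0, 0.731, 0.373 and 0 FPKM in the eyes and 8.76, 6.64, 8.86 and 15.99 FPKM in the brains, and sst1.1, a somatostatin precursor, 1.503, 2.02, 0.750 and 0.398 and 19.5, 28.2, 18.1 and 24.4 FPKM. The genes higher in the eye were chgb, a granin (40.3 ± 5.499 against 20.4 ± 5.10 FPKM), and vip, the vasoactive intestinal peptide precursor that mammalian amacrine cells also make (14.2 ± 2.88 against 8.53 ± 1.797 FPKM; mean ± SD, n = 4). Pituitary genes were called higher in the brain in 8 of 9 cases. Growth hormone, gh1, measured 4.1999, 8.68, 24.2 and 22.8 FPKM in brain replicates 1 to 4, so that the brains varied 5.76-fold among themselves, and the eyes were at or below 0.106 FPKM. Genes under 1 FPKM in every eye, such as oxt and gh1, could pass the filter only through the brains. The filter set their direction, so their part of the counts is no support for it. For monoamines and acetylcholine the brain led in 13 and the eye in 3 of 20, the eye's largest being the dopamine receptor gene drd4a (3.03 ± 0.15), of a type found in mouse photoreceptors.

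Opsins outside rods and cones were called in both directions. Of 24 non-visual opsins tested, 16 were called higher in the eye and 6 in the brain. Over all genes tested the shares were 27.0% for the eye and 26.1% for the brain, so the 6 are near the latter. The melanopsins opn4.1 (61.5, 68.0, 65.9 and 81.1 FPKM in the eyes, 0.900, 0.612, 0.490 and 0.887 FPKM in the brains) and opn4xb (55.1 ± 4.38 and 0.615 ± 0.307 FPKM) and the opsin opn9 (53.5 ± 3.58 and 0.0768 ± 0.0827 FPKM; mean ± SD, n = 4) led the eye's side. All of these averaged under 1 FPKM in the brain, so the filter set their direction. The brain's side was tmtops3b, a multiple tissue opsin (-1.83 ± 0.23), tmtopsb (-0.60 ± 0.16), the type 7 opsins opn7c (-1.36 ± 0.21), opn7a (-0.92 ± 0.23) and opn7b (-0.59 ± 0.12), and exorh, the rod-like opsin of the pineal gland. The last measured 1.96, 4.002, 2.09 and 4.52 FPKM in the eyes and 6.26, 4.72, 11.6 and 8.403 FPKM in the brains. Both families also had a member called higher in the eye, tmtops2a (1.71 ± 0.14) and opn7d (0.87 ± 0.19). In a list of pineal and melatonin genes 8 of 14 tested were called higher in the eye and 2 in the brain. Under DD 7 of the 8 and 0 of the 2 kept the call. The aanat2 gene, the enzyme that sets the melatonin rhythm in fish, measured 13.7, 17.19, 15.9 and 19.3 FPKM in the eyes and 0.124, 0.640, 0.669 and 0.734 FPKM in the brains.

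Clock genes were skewed to the eye. Of 36 tested, 27 were called higher in the eye and 0 in the brain, and 25 of the 27 kept the call under DD. The gene nfil3-6, a relative of the mammalian leucine zipper repressor NFIL3, measured 52.2, 71.8, 82.7 and 96.8 FPKM in the eyes and 1.91, 2.28, 3.06 and 2.68 FPKM in the brains (4.44 ± 0.19, limma adjusted p = 3.91e-08). The nuclear receptor gene nr1d1, which represses the clock's activators, measured 114, 194, 251 and 261 and 32.1, 28.8, 53.3 and 55.496 FPKM, bhlhe40 224, 364, 457 and 469.6 and 55.49, 67.7, 81.5 and 102 FPKM, and per2, a light-induced period gene, 48.6, 62.3, 76.1 and 74.9 and 17.8, 21.4, 23.5 and 18.8 FPKM. Of the core activator genes, arntl1b and clocka were called and clockb and arntl1a were not, with arntl1b at 0.86 ± 0.10, clocka at 0.27 ± 0.07, clockb at -0.01 ± 0.11 and arntl1a at 0.18 ± 0.12. The summed clock list varied 1.48-fold among the eyes, at 2169.8, 2718, 2999 and 3221 FPKM in replicates 1 to 4, against 965, 1105, 1059.8 and 1246 FPKM in the brains. The time of collection is not given for either tissue, so a difference in level and a difference in clock phase cannot be told apart.

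**Figure D4:**
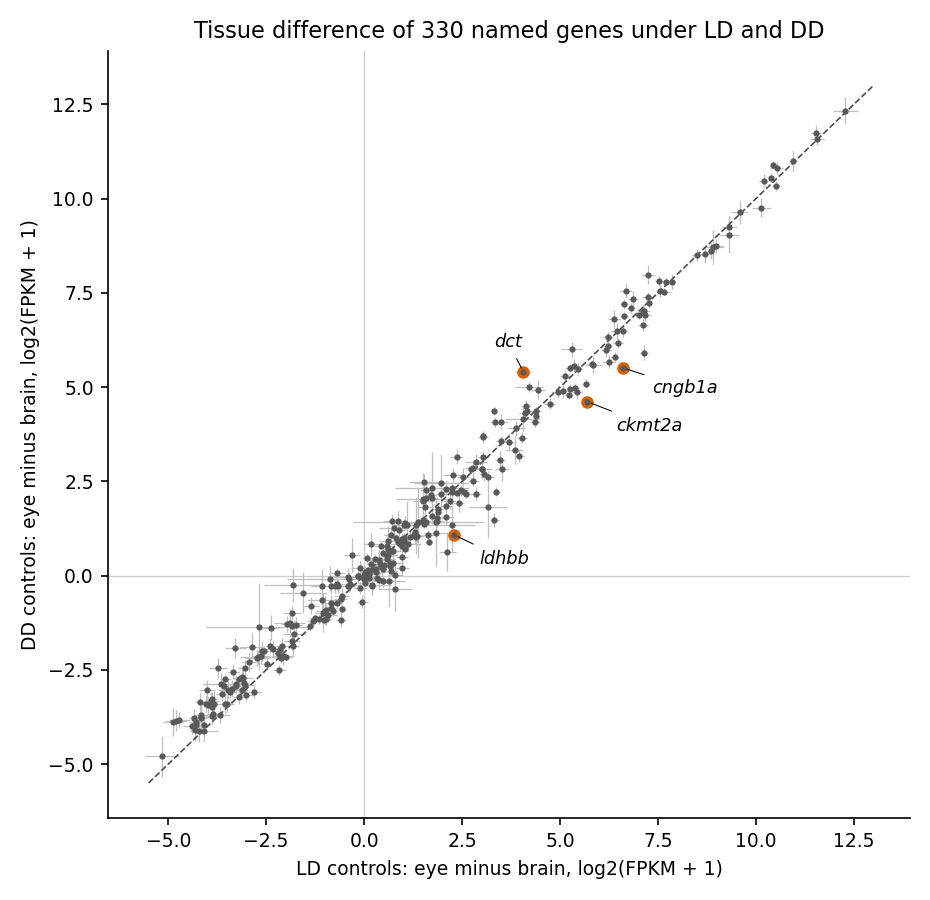
Log2 difference between eye and brain (log2(FPKM + 1), eye minus brain) in LD controls (horizontal axis) and in DD controls (vertical axis) for the named genes tested in both, 1 point per gene with its standard errors, and a dashed line of equal differences. Points lie along the line from the regional brain genes at the lower left to the crystallins at the upper right, with dct, ldhbb, ckmt2a and cngb1a among those labelled off it.

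Energy genes and cell division genes had members called in both directions. Of 35 glycolysis genes tested 18 were called higher in the eye and 7 in the brain, and 9 of the 18 on the eye's side kept the call under DD. The shares over all genes tested were 27.0% for the eye and 26.1% for the brain, so the 7 of 35 are under the latter. Without brain replicates 2 and 4 the 7 fell to 4. The lactate dehydrogenase gene ldhbb measured 33.0 ± 0.625 FPKM in the eye and 6.06 ± 1.92 FPKM in the brain, and aldoca, an aldolase of Purkinje cells, 0.415 ± 0.222 and 8.85 ± 1.17 FPKM (mean ± SD, n = 4). The mitochondrial creatine kinase gene ckmt2a measured 42.9, 68.8, 51.7 and 62.6 FPKM in the eyes and 0.113, 0.291, 0 and 0 FPKM in the brains. The tissue difference of ldhbb and of ckmt2a was smaller under DD (limma adjusted p = 0.0263 and 0.0422), a call kept in 12 and 6 of 23 other settings. In the list of creatine genes 4 of 8 were called higher in the eye and 1 in the brain. Of 13 genes encoded in the mitochondrial genome, mt-atp6 was called higher in the eye (0.49 ± 0.16) and mt-nd3 higher in the brain (-0.73 ± 0.18), but under quantile normalization 12 of the 13 were called higher in the brain, so no direction is given for them. For cell cycle and replication 28 of 39 genes were not called, 10 were higher in the eye and 1, the cyclin gene ccnd2a (-0.69 ± 0.20), higher in the brain. The 10 of 39 higher in the eye compare with 27.0% of all genes tested. The median was 0.21, and 1 of the 10 kept the call under DD. The call of ccnd2a was not kept under DD, nor without brain replicates 1 and 3 together. Neural progenitor genes favoured the brain in 20 of 30 cases, led by mab21l2, a factor of the optic tectum and eye (-3.57 ± 0.13), and sox19a (-3.37 ± 0.21). The 4 that favoured the eye included the retinal stem cell factor rx2 (4.95 ± 0.14) and pax6a (3.01 ± 0.07).

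Zebrafish carry many genes as duplicate or closely related copies, and in several pairs the copies were higher in opposite tissues. Of 50 pairs with both copies tested, 5 had copies called in opposite directions. Over all genes tested, 27.0% were called higher in the eye and 26.1% in the brain, so unrelated genes can be opposite too. Whether the 5 of 50 differ from pairs of unrelated genes was not tested. For the type 2 glial glutamate transporters, slc1a2a was higher in the eye by 7.27 ± 0.09 and slc1a2b higher in the brain, at 58.9, 76.0, 84.0 and 75.1 FPKM in the eyes and 448, 414, 333 and 453 FPKM in the brains. For SNAP-25, the membrane protein of vesicle fusion, snap25a measured 96.1, 84.5, 82.1 and 71.7 FPKM in the eyes and 322, 535, 269 and 418 FPKM in the brains, and snap25b 384, 411, 423 and 426 and 117, 108, 98.2 and 117 FPKM. The groups of neither gene overlapped, where 49.4% of all genes tested did not overlap in either direction. Of the copies, snap25a was the higher in every brain and snap25b in every eye. The other pairs were rho and exorh (the call of exorh was lost without brain replicates 1 and 3 together, limma adjusted p = 0.0584), the nuclear receptors nr2f1a (-1.26 ± 0.14) and nr2f1b, and the sodium pump subunits atp1a3a (-0.69 ± 0.12) and atp1a3b (0.70 ± 0.13). In further pairs 1 copy carried nearly all of the difference. The gad1b gene was not called (107 ± 2.57 FPKM in the eye, 91.9 ± 13.2 FPKM in the brain) while gad1a differed by -3.54 ± 0.14, and slc1a3a differed by -0.68 ± 0.18 where slc1a3b differed by -4.79 ± 0.27. Both copies of the transducin beta gene of cones were higher in the eye, but gnb3b measured 1051 ± 60.4 FPKM there and gnb3a 10.6 ± 1.44 FPKM (mean ± SD, n = 4). Since duplicate copies can share reads, the levels of close copies are less certain than their sum.

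**Figure D5:**
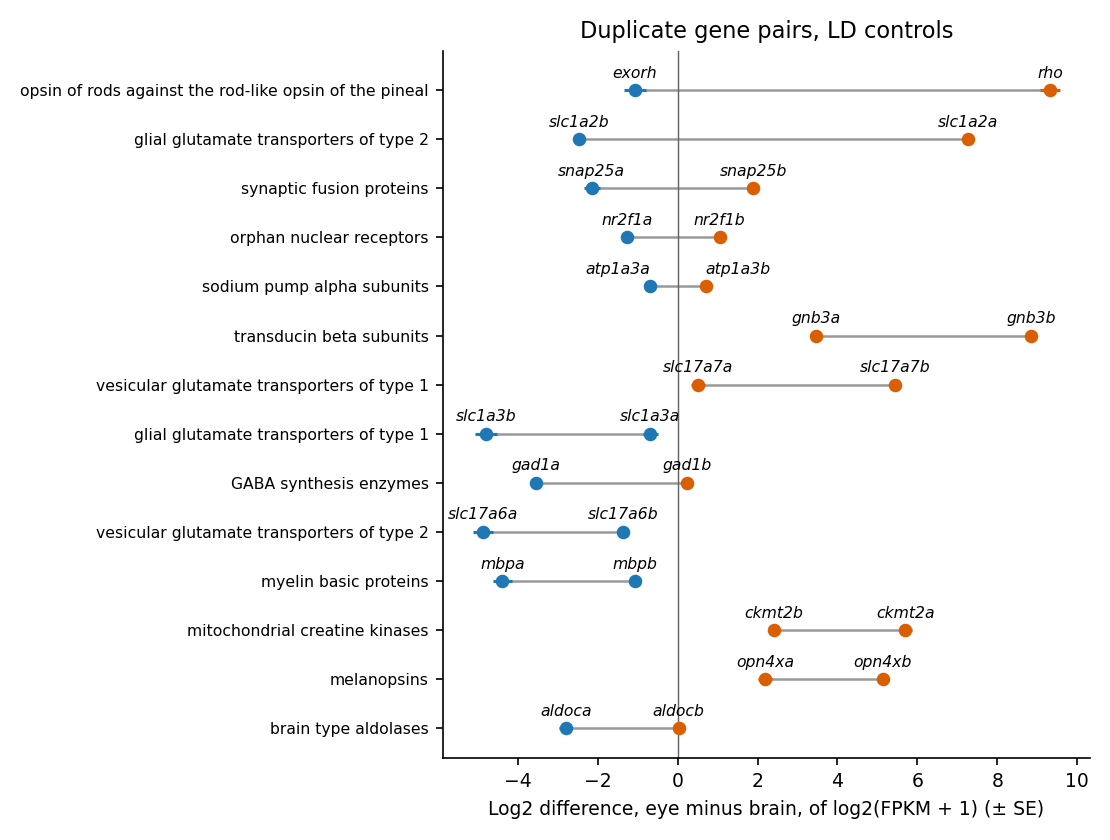
Log2 difference between eye and brain (log2(FPKM + 1), LD controls) of the 2 copies of 14 duplicate gene pairs, 1 line per pair joining its copies, with standard errors. In the 5 pairs at the top the copies lie on opposite sides of 0, and in the other 9 they lie on the same side or 1 of them is near 0.

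Genes of hormone and vitamin A signalling were more often higher in the eye. Of 30 tested, 20 were called higher in the eye and 4 in the brain, and 20 of the former kept the call under DD. The shares over all genes tested were 27.0% for the eye and 26.1% for the brain. They included cyp26a1, which breaks down retinoic acid, at 20.3 ± 1.102 FPKM in the eye and 0.653 ± 0.284 FPKM in the brain, and thrb, a thyroid hormone receptor of red cones, at 52.1 ± 4.01 and 8.20 ± 1.67 FPKM. The related retinoic acid hydroxylase cyp26b1 was higher in the brain (3.47 ± 0.567 and 19.2 ± 4.22 FPKM; mean ± SD, n = 4). Genes of the response to foreign compounds were called higher in the eye in 12 of 21 cases and in the brain in 1, but 5 and 0 without brain replicates 2 and 4. The 5 of 21 are near the share of all genes tested. Under DD 7 of the 12 and 0 of the 1 kept the call. Among the members of this list that were called, ppardb, a fatty acid receptor, had the largest difference (1.304 ± 0.09). Related genes outside the list are not covered by this ranking.

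Genes of the tissue around eye and brain differed by list in how often they were called. The shares over all genes tested were 27.0% called higher in the eye and 26.1% in the brain. Several of the counts below are near or under these shares and are no result about their lists. Cornea and epidermis genes were called higher in the eye in 13 of 29 cases and 26 of 29 without brain replicates 1 and 3, and 8 of 29 without replicates 2 and 4, alternatives chosen after the values were seen. The krt4 gene, a keratin of the skin, measured 351, 196, 269.9 and 408 FPKM in the eyes and 488, 32.7, 223 and 15.9 FPKM in the brains, and it was not called. The cartilage gene matn1, named after its values were seen, measured 109, 4.63, 153 and 1.54 FPKM in brain replicates 1 to 4 and at most 12.2 FPKM in the eyes, and was not called either (limma adjusted p = 0.12). In cartilage, bone and connective tissue 5 of 27 were called higher in the eye and 4 in the brain, against 12 and 2 without brain replicates 1 and 3. Without replicates 2 and 4 the counts were 4 for the eye and 17 for the brain, so the balance of this list turned with the pair left out. The counts for eye and brain were, in skeletal muscle 1 and 1 of 21, in blood 1 and 0 of 10, and in exocrine pancreas and gut 0 and 0 of 10. Without brain replicates 2 and 4 the muscle counts were 1 and 7. The muscle gene called higher in the eye was mb, myoglobin, at 25.0, 47.3, 40.8 and 26.2 FPKM in the eyes and 3.13, 0.276, 2.398 and 0.0594 FPKM in the brains. Vessel genes were called higher in the eye in 11 and in the brain in 5 of 21 cases. The glucose transporter slc2a1a led the first (2.09 ± 0.16), and the second included mfsd2aa, a lipid carrier of the blood-brain barrier (-0.84 ± 0.13). Microglia and macrophage genes were called in 3 and 1 of 9, and inner ear and cranial ganglion genes in 5 and 6 of 13, the latter with the neurotrophin receptor gene ntrk2a higher in the brain (-2.55 ± 0.12).

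The genes of the brain were longer on the chromosome than those of the eye. Among protein-coding genes the median span from first to last annotated base was 29.5 kb for the 1116 genes more than 2-fold higher in the brain, 18.8 kb for the 1245 more than 2-fold higher in the eye, and 18.6 kb for the 13229 others tested. Spans of over 100 kb made up 21.1%, 7.07% and 8.56% of these groups. The gene length that the authors' table divides by, in contrast, had medians of 2.60, 2.35 and 2.46 kb. These are descriptions of the annotation, with no test.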

How the data were processed

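RNA-seq values of 32520 genes were taken from the table the authors deposited, in which each of the 32 library columns holds FPKM. HISAT2 2.0.5 is listed beside featureCounts 1.5.0-p3, per the submitters' processing notes. For the genome build, the annotation and any use of strand in counting the answer is not given in the sources used here, so antisense and overlapping genes are uncertain, and coordinates are those of the authors' table. FPKM times gene length came out in whole fragments for 100% of values in every library (tolerance 0.05), which gave 9903601 to 15724003 fragments in the 8 libraries compared. The authors' table also holds 2 group means of size-factor-scaled signal for this contrast, deposited without replicates and used only to recover those size factors.

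Values were analysed as log2(FPKM + 1) for genes that reached 1 FPKM in 4 or more libraries, with limma 3.58.1 in R 4.3.3 (lmFit, eBayes with trend, treat for a 2-fold change, two-sided, Benjamini-Hochberg adjusted p under 0.05). The same steps were tested on simulated data. Alternatives covered the pseudocount, the filter, scaling, a replicate block, array weights, voom on the recovered fragments, a fit of all 32 libraries and left-out libraries. Named genes are the 4 markers, the 10 largest and 10 smallest differences among called and named protein-coding genes of at least 10 FPKM, the 10 highest levels in each tissue, and leading members of 41 gene lists (1285 of 1335 entries matched by symbol) and of 59 matched pairs, beside genes said to be named after their values were seen. The members and lists were chosen with earlier results of these data known.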

Additional observations from a re-analysis of the deposited data

Results flagged for a closer look

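In 23 of 324 groups of 4 libraries that were checked, the lowest or highest library lay far from the other 3, by a gap of the given share of the group's whole range. Chance gives such a group about 1 time in 20. Among the eyes, replicate 1 was low for atp1a3a (0.924), cngb1a (0.943, at 115 FPKM against 125 to 126) and rbp3 (0.88, at 152 FPKM against 206 to 214), and high for grik1a (0.854) and for the summed cell cycle list (0.851). Eye replicate 2 was high for the green opsin opn1mw1 (0.857), for opn9 (0.897) and for the summed exocrine pancreas and gut list (0.989), which stood at 148 FPKM there and at 35.1 to 36.4 FPKM in the others. Eye replicate 3 was high for rx3 (0.851), and eye replicate 4 was high for aqp4 (0.929) and low for zic1 (0.945).

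Among the brains, replicate 1 was high for gata3 (0.905), nr2f1b (0.865) and opn1sw1 (0.869). Brain replicate 2 was high for thrb (0.981, at 10.7 FPKM against 7.34 to 7.402) and low for ccnd2a (0.889). Brain replicate 3 was high for the summed crystallins (0.886, at 11.2 FPKM against 6.60 to 7.12) and the summed list of the response to foreign compounds (0.849), and low for the summed cell cycle list (0.9). Brain replicate 4 was high for opn7a (0.889) and for tmtops3b (0.864, at 6.09 FPKM against 2.49 to 2.98). The neuronal filament gene inab was low in eye replicate 4 (0.843) and low in brain replicate 4 (0.866).

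For 6 of the named genes that were checked, the tissue difference changed between LD and DD by the limma test of that change. As DD minus LD in log2 units it was -1.08 for ckmt2a, -1.1 for cngb1a, 1.34 for dct, -1.22 for ldhbb, 1.05 for rdh8a and -1.23 for slc25a3a. Over 23 other settings the call was kept in 6, 21, 18, 12, 22 and 10 for these genes in the same order.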

How the results depend on the processing

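Over the alternatives the LD count of called genes ran from 8138 to 9450 and the count past 2-fold from 1929, in the fit of all 32 libraries, to 3079, with voom. With 1 library left out the counts were 8138 to 9001 for LD, 2329 to 2590 past 2-fold and 7228 to 8304 for DD. Of the 4 counts over all genes, that of genes whose tissue difference changed with photoperiod, 88, moved by over 1.5 times. It was 25 with a pseudocount of 0.1, 54 with no filter, 38 with the replicate block, 163 with array weights, 18 with voom (4 higher and 14 lower, against 42 and 46), and 26 to 84 with 1 library left out, lowest without eye LD replicate 2. The cause was not tested. With the replicate block the other counts were 8993 for LD, 2499 past 2-fold and 7983 for DD. The pairing of same-numbered LD libraries gave correlations of deviations of 0.100, 0.0859, 0.116 and 0.150, and DD pairs gave 0.177, 0.0564, 0.0446 and 0.207. All 8 were the highest for their eye and for their brain library, a hint of pairing from the data, but no label states it and 3 of the 8 were under 0.1, so the fits without the block are given first. Quantile normalization moved the median of all genes from 0.01 to -0.08 under LD and from 0.02 to -0.11 under DD, with 4080 genes then higher in the eye and 5113 in the brain under LD. In that setting 1 lens structure gene, 1 cone gene and 1 clock gene were called higher in the brain. Among the list counts by direction, 1 moved by over 1.5 times with median-ratio scaling, 10 with quantile normalization, 7 without brain replicates 1 and 3 and 9 without brain replicates 2 and 4. Without the latter pair cornea and epidermis fell to 8 in the eye, cartilage was 4 and 17 for eye and brain, and the response to foreign compounds 5 and 0. Of 153 genes with values in the text that were checked in this way, 140 kept their direction and call throughout. Those that turned direction were clockb (0.02 without eye replicate 2, 0.046 without brain replicate 1, 0.02 without brain replicate 3 and 0.13 without brain replicates 1 and 3), foxg1a (-0.19 without brain replicates 2 and 4), gnb1a (-0.022 without brain replicates 1 and 3), krt4 (-0.16 without brain replicates 2 and 4) and mt-atp6 (-0.72 with quantile normalization). A call was gained when 1 library was left out for crygm4 (0.68 without eye replicate 1), gad1b (0.29 without brain replicate 2), krt4 (2.56 without brain replicate 1), matn1 (-3.73 without brain replicate 4) and rgs9b (-0.46 without eye replicate 1 and -0.42 without brain replicate 3). The call of mt-atp6 was lost without any 1 of 6 libraries (limma adjusted p up to 0.081). With 4 libraries a group, genes near 1 FPKM are the least certain.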

Other observations

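Many called genes stood outside the gene lists, and the genes given here were named after their values were seen. Of the called genes, 8308 were on no list. Among those with a gene name and a protein product, the highest differences after foxg1b included capn3a, a calpain that is prominent in the lens of mammals, at 222, 223, 256 and 297 FPKM in the eyes and 0.149, 0.192, 0.139 and 0.302 FPKM in the brains. The lens gene lgsn, lengsin, measured 104 ± 7.59 FPKM in the eye and 0.0484 ± 0.0580 FPKM in the brain (mean ± SD, n = 4). The phosducin gene pdcb of photoreceptors (7.02 ± 0.11) and the genes of the matrix around photoreceptors, impg2a (6.61 ± 0.13) and impg1a (6.48 ± 0.12), were also higher in the eye. So were slc25a3a, a mitochondrial phosphate carrier (7.14 ± 0.10), aqp9b, a channel for water and glycerol (7.11 ± 0.13), and sv2ba, a synaptic vesicle glycoprotein (6.39 ± 0.09). For each of these genes the limma adjusted p was at most 7.24e-10. They were picked for their high differences, so it is no support for them. Each averaged under 1 FPKM in the brain, so the filter also set its direction.

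On the side of the brain low differences of such genes included nova1, a splicing factor of neurons, at 6.29, 5.73, 5.22 and 4.87 FPKM in the eyes and 159.6, 106, 132 and 129.7 FPKM in the brains, and asic1c, an acid-sensing channel, at 1.18 ± 0.342 and 41.9 ± 4.88 FPKM. The axon guidance gene ntn1b (-4.28 ± 0.18), the relaxin-3 precursor rln3a (-4.202 ± 0.20) and dner, a Notch-related membrane protein of neurons (-4.18 ± 0.14), were also higher in the brain. The homeobox and SOX factors shox (-4.17 ± 0.24) and sox14 (-4.16 ± 0.14), the kinase gene camk2a of synaptic plasticity (-4.01 ± 0.20), the POU factor pou3f2a (-3.98 ± 0.11) and the receptor gene adcyap1r1a for the peptide PACAP (-3.90 ± 0.20) were too. The limma adjusted p was at most 3.69e-07 for each of these 10 genes, and in all of them every brain library was above every eye library. They were picked for their low differences, so neither is support for them. Over all genes tested, groups did not overlap in either direction for 49.4%. The lowest difference of any called gene was that of a microRNA gene, dre-mir-125b-3, at 0, 3.33, 0.753 and 0 FPKM in the eyes and 52.56, 79.6, 42.1 and 65.4 FPKM in the brains (-5.16 ± 0.44). Whether these fragments came from a longer transcript was not tested.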
